A study of Mus musculus with 7 samples.

Results

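The 10 genes described here are induced through NF-kB or its partner cytokine pathways: the feedback genes Nfkbia, Nfkbiz, Tnfaip3 and Socs3, the cytokine Il1b, the chemokines Cxcl1, Cxcl2 and Ccl2, and the adhesion receptors Icam1 and Vcam1. They are the 10 genes, of 42687 in the count table, whose Ensembl identifiers map to these symbols, and all 10 passed the filter on low counts and were among the 14304 genes tested. The genes were measured by bulk RNA-seq in cells carrying CD24 and CD29 that were sorted from digested femurs of C57BL/6 mice, a population the labels call skeletal stem cells. Mice 3 months old at the start were fed a low fat diet (LFD, 10% fat) or a high fat diet (HFD, 60% fat) over 4 weeks, which gave 4 LFD libraries (replicates 1 to 4) and 3 HFD libraries (replicates 2 to 4). No genetic change is labelled in either group. The comparison asks how transcripts of the sorted cells differ between the diets.

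NF-kB is a family of transcription factors held in the cytoplasm by inhibitor proteins of the IkB family. Signals from interleukin 1, tumour necrosis factor or Toll-like receptors activate a kinase complex that marks the inhibitors for destruction, and the freed factors then switch on cytokines, chemokines and adhesion receptors together with the genes that end the response. In bone, the same pathway acts in osteoclast formation and in the inflammatory responses of stromal cells, and its chemokines recruit neutrophils and monocytes.

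The libraries held 17391613 to 24681838 counts and 15394 to 18850 genes with at least 1 count. Itgb1, which encodes CD29, measured 368 to 488 CPM in LFD and 380 to 497 CPM in HFD, and Cd24a 1524 to 4852 and 774 to 3004 CPM (CPM is a gene's count divided by the TMM-scaled total of its library, the usual unit of depth-normalised level). Other cells' transcripts were present: summed erythroid markers made up 10.3% to 14.2% of counts in LFD and 2.59% to 10.4% in HFD. Xist, transcribed from the inactive X chromosome, measured 16.1 to 32.7 CPM in the LFD libraries and had 0 counts in the HFD libraries, while the Y-linked Ddx3y measured at most 0.187 CPM in LFD and 67.8 to 82.3 CPM in HFD. The labels give no sex, and diet and sex cannot be told apart in any difference given here. Fewer cells of a type and less RNA per cell cannot be told apart either.

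The promoters of 7 of the 10 genes were found in the RefSeq table (build GRCm38.p6), and the 250 bases before the start were searched on both strands for the kappa B consensus, for GGAANTTCC (an inner part of many NF-kB sites, which overlaps that consensus) and for TTCNNNGAA (the core bound by STAT factors). Nfkbiz, Ccl2 and Vcam1 were not in that table. The kappa B consensus was present in 4 of the 7 genes (Cxcl1, Cxcl2, Tnfaip3 and Nfkbia), against 5% of 32851 promoters of the same length, and GGAANTTCC in 5 of the 7, against 0.813%. The 4 promoters below are shown because they compare the nearby chemokine genes Cxcl1 and Cxcl2 with a feedback gene and an adhesion receptor. Capitals mark the matches.
Cxcl1, chr5:90890995-90891244, plus strand: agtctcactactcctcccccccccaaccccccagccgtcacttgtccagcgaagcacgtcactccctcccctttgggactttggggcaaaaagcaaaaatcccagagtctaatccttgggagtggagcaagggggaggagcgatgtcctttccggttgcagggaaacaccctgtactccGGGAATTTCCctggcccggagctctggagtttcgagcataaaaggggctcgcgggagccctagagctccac
Cxcl2, chr5:90903649-90903898, plus strand: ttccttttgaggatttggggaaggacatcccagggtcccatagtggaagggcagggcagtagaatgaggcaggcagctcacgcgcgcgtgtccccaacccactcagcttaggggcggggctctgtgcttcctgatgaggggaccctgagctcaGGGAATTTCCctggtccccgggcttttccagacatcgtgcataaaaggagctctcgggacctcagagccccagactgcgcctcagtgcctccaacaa
Nfkbia, chr12:55492648-55492897, minus strand: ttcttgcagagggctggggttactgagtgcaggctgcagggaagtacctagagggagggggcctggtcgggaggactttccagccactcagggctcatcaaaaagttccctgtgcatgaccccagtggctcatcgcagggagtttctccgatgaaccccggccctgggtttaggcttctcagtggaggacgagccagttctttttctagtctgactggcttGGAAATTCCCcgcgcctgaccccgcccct
Icam1, chr9:21015690-21015939, plus strand: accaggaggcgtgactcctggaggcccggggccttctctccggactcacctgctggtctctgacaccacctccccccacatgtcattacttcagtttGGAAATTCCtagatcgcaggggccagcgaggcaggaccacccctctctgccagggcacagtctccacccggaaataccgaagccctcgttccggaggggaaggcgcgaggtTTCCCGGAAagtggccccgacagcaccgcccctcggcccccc
Cxcl1 and Cxcl2 held the same 10 letters, GGGAATTTCC, 71 to 62 and 97 to 88 bases before the start. In Nfkbia the match lay 29 to 20 bases before the start. Icam1 held GGAANTTCC 153 to 145 bases and TTCNNNGAA 42 to 34 bases before the start. Tnfaip3, not printed in full, held GGAATTTCC and GGAAATCCCC close before its upstream start in the RefSeq table. Socs3 held TTCTTAGAA 154 to 146 bases before its start there, a core found in 7.02% of promoters. In both genes these sites lie inside the gene spans given below, whose first bases are farther upstream. Il1b held none of the 3 motifs in this window. A match describes the letters only.

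None of the 10 genes passed an adjusted p of 0.05 in edgeR's quasi-likelihood test, beside 0.035% of all genes tested (5 genes). Most of the genes called were sex-linked: of 5 sex-linked genes checked, Xist among them, edgeR called 3 as higher and 1 as lower in HFD. At an unadjusted p under 0.05, 3 of the 10 were higher in HFD (Il1b, Cxcl2 and Ccl2), beside 5.18% of all genes, and 0 were lower, beside 2.35%. Either direction held 7.53% of all genes. The log2 fold change of HFD against LFD was above 0 for 6 of the 10, beside 51.5% of all genes, with a median of 0.28 beside 0.02 over all genes. The groups did not overlap for Cxcl2 and Ccl2, both higher in HFD, beside 8.4% of all genes, and none of the 10 lay wholly below LFD, beside 3.47%. Separation in either direction held for 11.9% of all genes. The feedback genes and adhesion receptors had overlapping groups. DESeq2 called 1 of the 10, Cxcl2, beside 2.09% of all genes, and limma-voom called 0, beside 0.196%. Leaving out LFD 1 raised the number at an unadjusted p under 0.05 to 5 higher and 1 lower. Leaving out HFD 2 left Cxcl2 alone, leaving out LFD 2 left Cxcl2 and Ccl2, and leaving out HFD 3 left Cxcl2 and Il1b. The count over all genes moved the same way, from 1077 of 14304 to 1995 of 13944 without LFD 1. It was 621 of 14829 without HFD 2, 911 of 14119 without LFD 2 and 784 of 14964 without HFD 3.

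**Figure D1:**
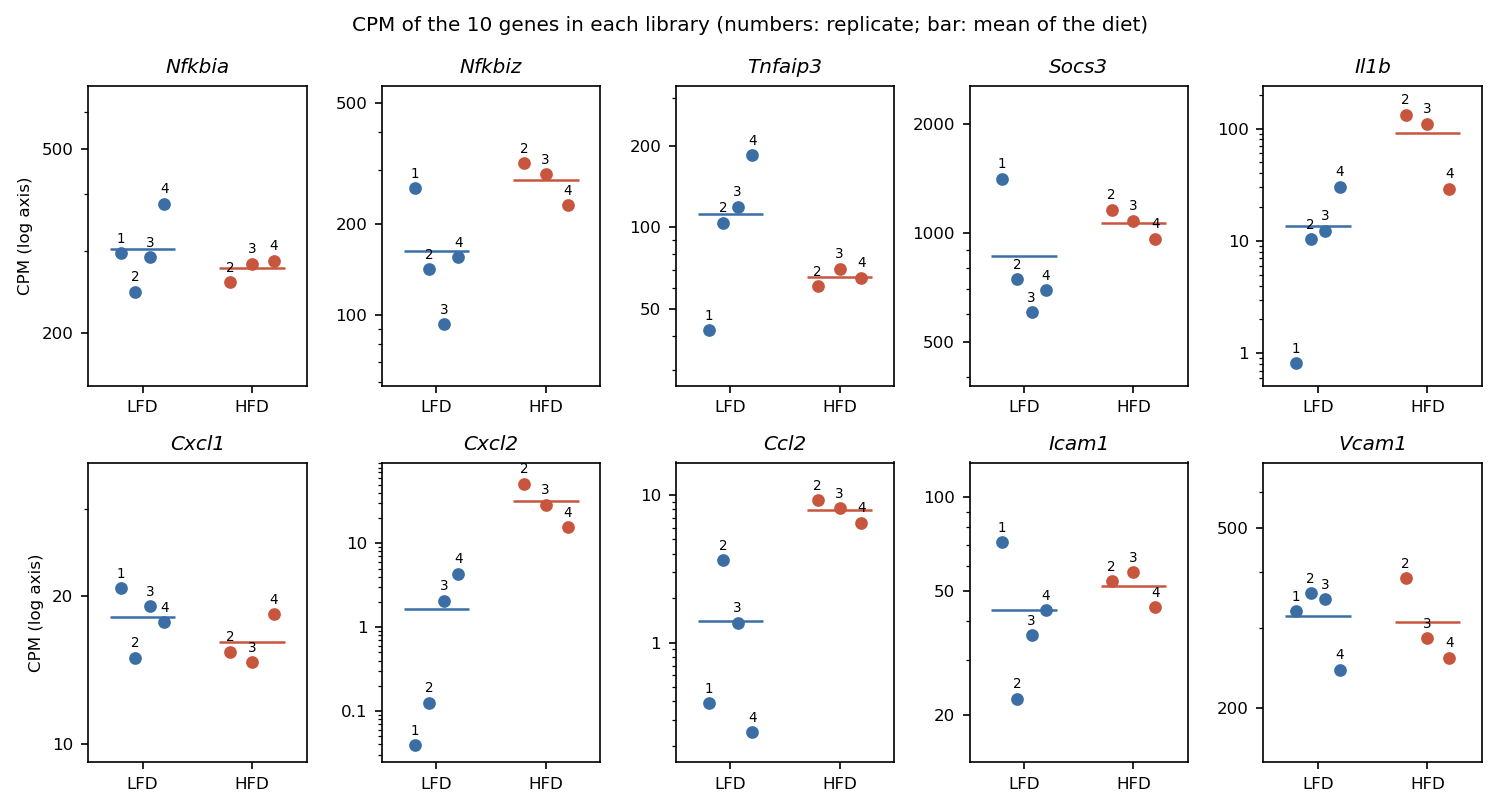
CPM of each of the 10 genes (log axis) in the LFD and HFD libraries, 1 point per library with its replicate number and a bar at the mean of each diet. Cxcl2 and Ccl2 show no overlap between the diets, and the other 8 genes overlap.

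**Figure D2:**
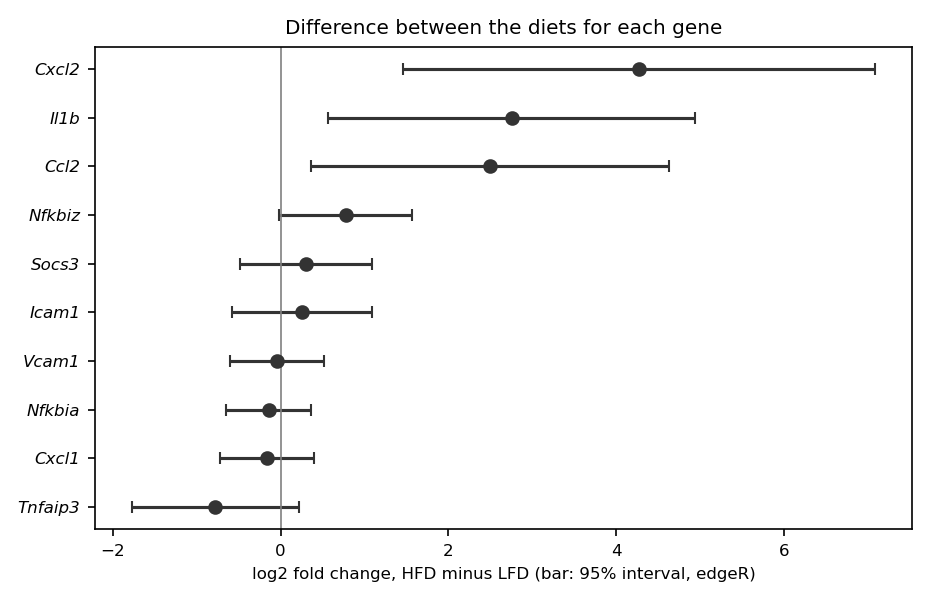
Log2 fold change of HFD against LFD for each gene (x axis), with the 95% interval of edgeR's fit as bars. The intervals of Cxcl2, Il1b and Ccl2 lie above 0 and those of the other 7 genes include 0.

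The feedback genes differed in direction. Nfkbia (ENSMUSG00000021025, chr12:55489410-55492647 of the mm10 build, minus strand) encodes IkB alpha, the inhibitor that NF-kB itself induces. It measured 297, 245, 291 and 380 CPM in LFD 1 to 4 and 257, 282 and 286 CPM in HFD 2 to 4. All 3 HFD libraries lay within the LFD range, with a log2 fold change of -0.14 ± 0.22 (SE, 95% interval -0.64 to 0.36, edgeR adjusted p = 0.892). Leaving out single libraries moved it between -0.23 (without LFD 2) and -0.02 (without LFD 4). Nfkbiz (chr16:55811375-55838899, minus strand) encodes IkB zeta, a nuclear cofactor that NF-kB needs at some of its later targets. It measured 262, 141, 93.3 and 155 CPM in LFD and 316, 291 and 230 CPM in HFD. LFD 1 reached into the HFD range and the other 3 LFD libraries lay below it. The log2 fold change was 0.78 ± 0.34 (95% interval -0.01 to 1.57, edgeR adjusted p = 0.672), and leaving out single libraries moved it between 0.59 (without LFD 3) and 1.11 (without LFD 1).

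Tnfaip3 (chr10:19000910-19015657, minus strand) encodes A20, an enzyme that edits ubiquitin chains and dampens the signal to NF-kB. It measured 41.8, 104, 119 and 184 CPM in LFD and 60.8, 70.5 and 65.4 CPM in HFD. The HFD libraries lay between LFD 1 and the other LFD libraries. The log2 fold change was -0.78 ± 0.43 (95% interval -1.77 to 0.22, edgeR adjusted p = 0.693), and leaving out single libraries moved it between -1.05 (without LFD 1) and -0.43 (without LFD 4). Relative to Nfkbia per exon length, Tnfaip3 measured 0.0313, 0.0945, 0.0912 and 0.108 in LFD and 0.0526, 0.0556 and 0.0509 in HFD, so LFD 1 was again the one LFD library under the HFD values. Socs3 (chr11:117966079-117970047, minus strand), a target of STAT3 whose product limits signals of the interleukin 6 family, measured 1415, 746, 606 and 695 CPM in LFD and 1161, 1082 and 965 CPM in HFD. LFD 1 was above every HFD library and the other LFD libraries were below them all. The log2 fold change was 0.31 ± 0.34 (95% interval -0.48 to 1.09, edgeR adjusted p = 0.836), and leaving out single libraries moved it between 0.17 (without LFD 3) and 0.65 (without LFD 1).

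Il1b and 2 of the 3 chemokines had the largest fold changes among the 10. Il1b (chr2:129364570-129371139, minus strand) encodes interleukin 1 beta, made mainly by myeloid cells. It measured 0.819, 10.3, 12.3 and 30.4 CPM in LFD and 133, 111 and 29.0 CPM in HFD. HFD 4 lay just under the highest LFD library, and HFD 2 and HFD 3 were above all LFD libraries. The group means were 13.5 ± 12.4 (SD, n = 4) and 90.9 ± 54.7 CPM (SD, n = 3), a 6.75-fold difference (95% interval 1.48 to 30.9, log2 2.76 ± 0.95, edgeR adjusted p = 0.532). Its log2 fold change lay between 2.37 without LFD 1 or HFD 2 and 3.55 without LFD 4.

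Cxcl2 (ENSMUSG00000058427, chr5:90903871-90905938, plus strand) encodes a ligand of the neutrophil receptor Cxcr2. Its LFD libraries held 1, 2, 33 and 88 counts, or 0.0390, 0.125, 2.05 and 4.35 CPM. The HFD libraries held 1458, 598 and 326 counts, or 51.0, 28.9 and 15.6 CPM. Every HFD library was above every LFD library, with means of 1.64 ± 2.03 (SD, n = 4) and 31.8 ± 17.9 CPM (SD, n = 3). The fold difference was 19.3 (95% interval 2.75 to 136, log2 4.27 ± 1.22), which did not pass in edgeR (adjusted p = 0.391) and passed in DESeq2 (adjusted p = 0.0133). Over the alternatives its log2 fold change lay between 3.75 (without HFD 2) and 5.47 (without LFD 4). Of the 50-base words of its transcripts, 5.84% also occur in Cxcl3, and how reads shared by both genes were counted is not given in the sources used here. Cxcl3 itself had 1.17 ± 1.12 CPM in the LFD libraries and 0.158 ± 0.143 CPM in the HFD libraries.

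Cxcl1 (chr5:90891241-90893115, plus strand), which lies upstream of Cxcl2 on the same strand and encodes a ligand of the same receptor, measured 20.8, 15.0, 19.0 and 17.7 CPM in LFD and 15.4, 14.7 and 18.3 CPM in HFD. The diets overlapped, with a log2 fold change of -0.17 ± 0.24 (95% interval -0.73 to 0.39, edgeR adjusted p = 0.886), and it lay between -0.26 (without HFD 4) and -0.09 (without LFD 1 or HFD 3). Its interval lies under that of Cxcl2, although the difference between these genes was not tested. Per exon length, Cxcl2 was at most 0.223 of Cxcl1 in LFD and 3.00, 1.78 and 0.770 of it in HFD 2, 3 and 4. Both genes hold the same kappa B letters in the promoters printed above. Ccl2 (chr11:82035571-82037453, plus strand), which encodes a ligand of the monocyte receptor Ccr2, held 10, 58, 22 and 5 counts in LFD, or 0.390, 3.63, 1.37 and 0.247 CPM. It held 264, 168 and 136 counts in HFD, or 9.23, 8.11 and 6.5 CPM. The diets did not overlap, and the fold difference was 5.66 (95% interval 1.29 to 24.8, log2 2.5 ± 0.92, edgeR adjusted p = 0.591). Its log2 fold change lay between 2.15 without LFD 4 and 3.58 without LFD 2, and was 3.87 with limma-voom.

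For each adhesion receptor the diets' means differed by less than the SD within LFD. Icam1 (chr9:21015985-21028817, plus strand), which binds the leukocyte integrins made with Itgb2, measured 71.9, 22.5, 36.0 and 43.4 CPM in LFD and 53.8, 57.5 and 44.4 CPM in HFD. The HFD values lay inside the LFD range, with a log2 fold change of 0.26 ± 0.36 (95% interval -0.58 to 1.09, edgeR adjusted p = 0.879), and it lay between 0.04 without LFD 2 and 0.62 without LFD 1. Vcam1 (chr3:116109949-116129688, minus strand), which binds the integrin of Itga4 and Itgb1 and is also found on bone marrow stromal cells, measured 327, 359, 348 and 243 CPM in LFD and 387, 285 and 258 CPM in HFD. Its log2 fold change was -0.04 ± 0.25 (95% interval -0.60 to 0.52, edgeR adjusted p = 0.973), and its sign turned under 5 of 15 alternatives. Of the 50-base words of Icam1 transcripts 13.1% occur in other genes, so its level is less certain.

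Levels of different genes can be compared only per length of exon. In LFD the order of mean CPM per kb was Socs3 (299), Nfkbia (188), Vcam1 (36.0), Nfkbiz (32.5), Tnfaip3 (15.5), Icam1 (9.96), Cxcl1 (9.66), Il1b (7.06), Ccl2 (1.24) and Cxcl2 (0.794). Of the neighbours in that order, only Nfkbia and Vcam1 did not overlap in their library ranges. In HFD the order was Socs3 (370), Nfkbia (171), Nfkbiz (55.6), Il1b (47.7), Vcam1 (34.9), Cxcl2 (15.4), Icam1 (11.9), Tnfaip3 (9.07), Cxcl1 (8.61) and Ccl2 (6.98). Neighbours without overlap were Socs3 and Nfkbia, Nfkbia and Nfkbiz, Vcam1 and Cxcl2, and Icam1 and Tnfaip3. Socs3 and Nfkbia thus led in both diets, while Cxcl2 went from the last place to the sixth and Il1b from the eighth to the fourth.

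**Figure D3:**
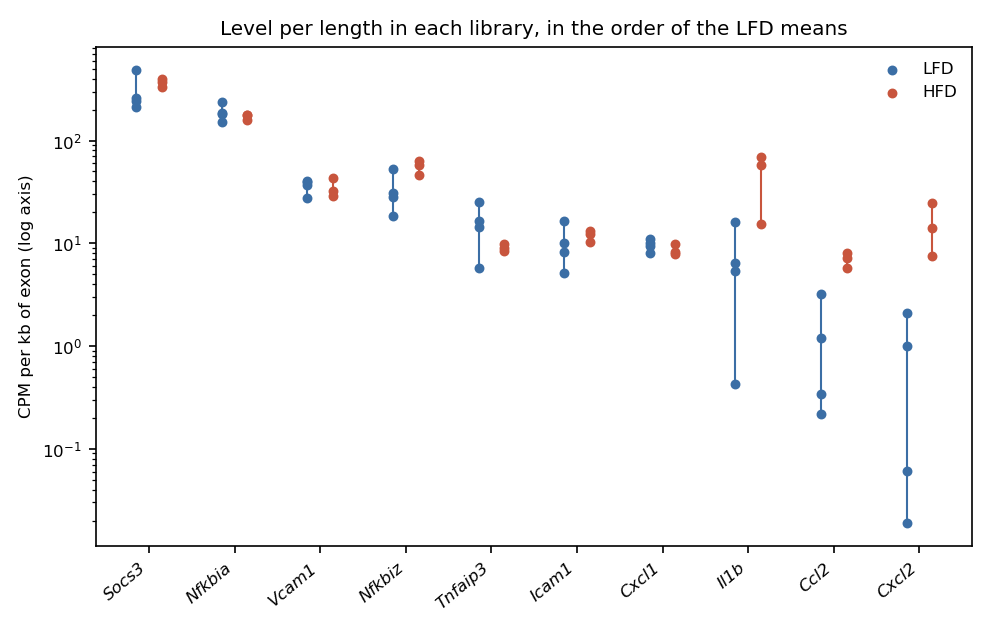
Level per length (CPM per kb of exon, log axis) of each gene in each library, LFD and HFD side by side, with lines from the lowest to the highest library. Genes are in the order of their LFD means, from Socs3 (299) to Cxcl2 (0.794).

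The spread over libraries was wider in LFD than in HFD for 9 of the 10 genes, by the ratio of the highest to the lowest library. The same held for 73.0% of the 11839 tested genes with counts in every library, and a ratio over 4 libraries tends to exceed one over 3. For Tnfaip3 the ratio was 4.4 in LFD and 1.16 in HFD, and for Ccl2 14.7 and 1.42. Vcam1, at 1.48 and 1.5, was the exception. LFD 1 was the highest LFD library for Nfkbiz, Cxcl1, Icam1 and Socs3 and the lowest for Tnfaip3, Il1b and Cxcl2, so it stood at opposite ends for different genes. HFD 2 was the highest HFD library for 6 genes and HFD 4 the lowest for 7.

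Markers of neutrophils, of monocytes and of leukocytes in general were higher in HFD alongside Il1b, Cxcl2 and Ccl2, while lymphocyte markers overlapped between the diets. Leukocytes were not alone in this. The summed markers of reticular stroma, among them Cxcl12 and Lepr, measured 198 to 438 CPM in LFD and 1550 to 2683 CPM in HFD. Of the 15 neutrophil markers, 15 had a fitted level higher in HFD, beside 51.5% of all genes. An unadjusted p under 0.05 held for 9 of them, beside 5.18% of all genes for a higher level. Their summed level was 918 to 5460 CPM in LFD and 8941 to 16936 CPM in HFD. Every one of them was detected in every HFD library, while Csf3r, Cxcr2 and Prtn3 were at 0 in LFD 1. Csf3r was also at 0 in LFD 3 and Prtn3 in LFD 2. Of 12 tested monocyte and macrophage markers 11 were higher in HFD and 4 had an unadjusted p under 0.05, with summed levels of 185 to 836 and 1656 to 2099 CPM. Most of that sum was Lyz2 alone, at 116 to 704 CPM in LFD and 1462 to 1919 CPM in HFD. Adgre1, Mrc1 and the C1q genes overlapped between the diets, and Mrc1 was lower in HFD (log2 fold change -0.84 ± 2.28). In LFD 1, Adgre1, Mrc1, Cx3cr1, Ms4a7, Fcgr1 and the C1q genes were at 0. Most of these were at 0 in other LFD libraries too: Fcgr1 in all of them, Cx3cr1 in LFD 2 and 3, Adgre1 in LFD 3 and Mrc1 in LFD 2. In HFD, Mrc1 was at 0 in HFD 3 and Ms4a7 in HFD 4. The pan leukocyte markers (4 of 4 higher in HFD) summed to 9.60 to 174 and 351 to 436 CPM, and Ptprc, which encodes CD45, measured 0.117 to 24.8 CPM in LFD and 51.9, 49.6 and 55.9 CPM in HFD. Lyz2, the most abundant monocyte and macrophage marker, had a log2 fold change of 2.33 ± 0.56, and Coro1a and Laptm5, the most abundant pan leukocyte markers, had 2.07 ± 0.74 and 2.0 ± 0.85. The B lineage markers (5 of 6 tested higher in HFD) summed to 10.3 to 473 CPM in LFD and 92.0 to 192 CPM in HFD, with Ighm at -0.78 ± 1.05 and Cd79a at 0.75 ± 1.06. The T and NK markers (3 of 4 higher) summed to 0 to 8.11 and 6.96 to 15.6 CPM, with Nkg7 at 2.18 ± 1.65 and Cd2 at 3.00 ± 1.93.

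Within the LFD group, Il1b and Cxcl2 stood in the same order as the neutrophil sum, lowest in LFD 1 and highest in LFD 4. Tnfaip3, whose log2 fold change of -0.78 went the other way between the diets, stood in that order too. That order was not particular to neutrophils: the monocyte and macrophage, pan leukocyte, B lineage and T and NK sums shared it. Within HFD the neutrophil markers did not share 1 order. With 3 libraries few orders are possible, and the share of all genes in each order was not computed. Il1b and Cxcl2 were highest in HFD 2 and lowest in HFD 4, and 5 of the 15 markers stood in that order: Retnlg, Csf3r, Cxcr2, Mmp8 and Stfa2l1. Retnlg measured 321, 223 and 218 CPM in HFD 2, 3 and 4, and Csf3r, the receptor for the neutrophil growth factor G-CSF, 60.4, 43.8 and 34.5 CPM. The opposite order held for 7 of the 15 (S100a8, S100a9, Ngp, Camp, Ltf, Ly6g and Mpo), among them the most abundant ones, Ngp with 2119, 3904 and 4933 CPM and S100a8 with 1948, 2641 and 3704 CPM. These abundant genes set the order of the sum, which was 8941, 12812 and 16936 CPM, and Mmp9, Elane and Prtn3 followed neither order. Ccl2 followed neither order in LFD, where LFD 2 was its highest library. LFD 2 was also the highest LFD library of the reticular stroma sum, whose lowest was LFD 3, while that of Ccl2 was LFD 4. In HFD 2, 3 and 4 this sum was 2683, 2223 and 1550 CPM. Il1b, Cxcl2 and Ccl2 stood in that order, and so did Nfkbiz, Socs3 and Vcam1, whose diets overlapped. Cxcl12 made up most of the reticular stroma sum in HFD, with 1986, 1564 and 1118 CPM. The part that leukocytes or reticular stroma play in the differences of Il1b, Cxcl2 and Ccl2 was not tested. Endothelial markers, a cell type in which Icam1 and Vcam1 are known, summed to at most 35.1 CPM in LFD and 8.03 CPM in HFD, with Tek at -1.29 ± 0.87 and Pecam1 at -0.65 ± 1.29.

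**Figure D4:**
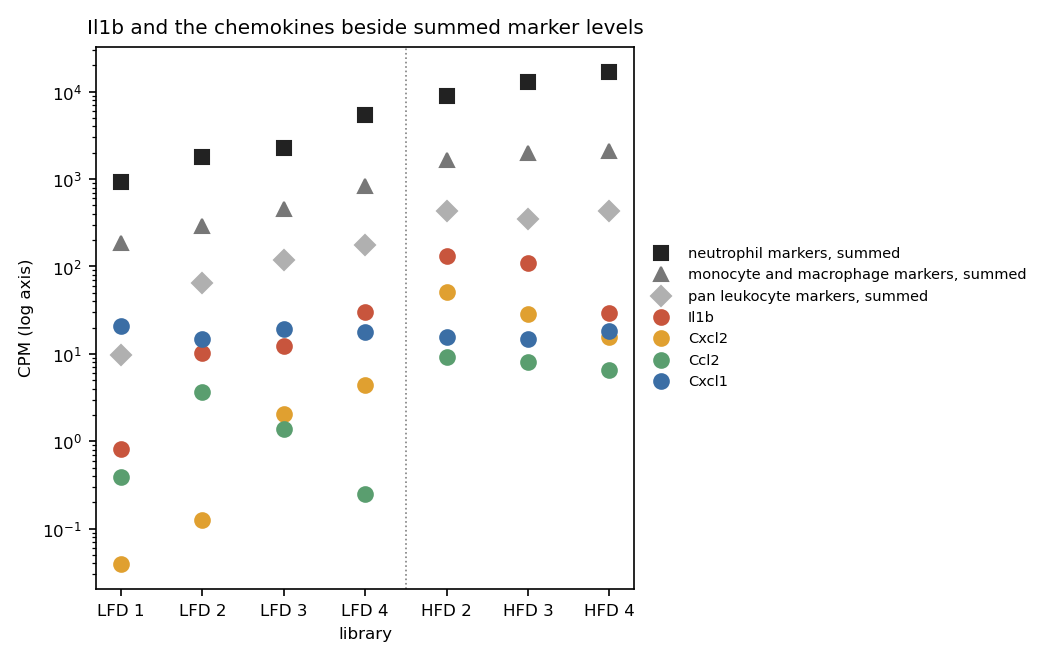
CPM (log axis) of Il1b, Cxcl2, Ccl2 and Cxcl1 in each library (circles), beside the summed CPM of neutrophil, monocyte and macrophage, and pan leukocyte markers (squares, triangles, diamonds). Marker sums are higher in every HFD library, and within HFD the library with the highest neutrophil sum, HFD 4, has the lowest Il1b and Cxcl2. That sum follows its most abundant genes, and 5 of the 15 neutrophil markers stand in the order of Il1b and Cxcl2. The share of all genes in that order was not computed.

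Genes whose pattern over the 7 libraries was most like a member were found by the root mean square difference of centred log2 CPM, a description only. For Cxcl2 these were Osm (0.35), Cd33 (0.50) and Mmp8 (0.54), against a spread of Cxcl2 itself of 2.42. For Il1b they were Limch1 (0.42), Cd300lf (0.50) and Clec5a (0.59), and for Ccl2 Ackr4 (0.46), H2-Q6 (0.52) and Cpz (0.53). Socs3 was nearest to Dpysl3 (0.08), the immediate early gene Junb (0.08) and Wsb2 (0.09). The nearest genes were Cbx1, Impdh2 and Psmc5 for Nfkbia, Fstl1, Proser2 and Stk39 for Nfkbiz, and Runx1t1, Mre11a and Zfp39 for Tnfaip3. They were Crebbp, Mpv17l2 and Scx for Cxcl1, Tob1, S100a10 and Tpbg for Icam1, and Trabd, Nob1 and Sbk1 for Vcam1. Among the 10 genes, the smallest differences were between Nfkbia and Cxcl1 (0.19) and between Nfkbiz and Socs3 (0.28). Nfkbia and Cxcl1 varied little themselves, with spreads of 0.19 and 0.17, so their small difference does not show a shared pattern. The spreads of Nfkbiz and Socs3 were 0.60 and 0.41. Il1b and Cxcl2 differed by 1.01, against larger spreads of their own of 2.10 and 2.42.

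Further genes of the pathway were read from lists, and none of their genes passed edgeR's adjusted threshold. The counts of each list stand beside these shares of all genes: 51.5% were higher in HFD and DESeq2 called 2.09%. At an unadjusted p under 0.05, 5.18% were higher and 2.35% lower. No list was tested against these shares. Upstream, 16 of 19 receptors and adaptors were higher in HFD (median log2 0.54), 5 of them and 0 of the lower ones at an unadjusted p under 0.05, and DESeq2 called 3. Il1rn, the natural antagonist of the interleukin 1 receptor, measured 1.6, 6.01, 2.05 and 4.35 CPM in LFD and 99.1, 65.8 and 19.1 CPM in HFD. Its groups did not overlap, and the log2 fold change was 4.14 ± 0.66 (edgeR adjusted p = 0.166, called by DESeq2). Tlr2, a receptor for bacterial lipoproteins, had a log2 fold change of 1.53 ± 0.34 (edgeR adjusted p = 0.273) and Cd14, a coreceptor for endotoxin, 1.75 ± 0.46 (edgeR adjusted p = 0.326), and DESeq2 called both. Il1r1, the signalling receptor of Il1b, had 0.73 ± 0.61 and Tnfrsf1a, the main receptor for tumour necrosis factor, 0.52 ± 0.24.

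The 16 NF-kB factors, IkB proteins and kinases had 6 higher and 10 lower in HFD (median -0.15), where 51.5% of all genes were higher. At an unadjusted p under 0.05, 3 were lower and 0 higher, and no difference from the other lists was tested. Chuk, the kinase IKK alpha, measured 29.7 to 43.5 CPM in LFD and 17.4 to 26.2 CPM in HFD, without overlap, and its log2 fold change was -0.81 ± 0.24 (edgeR adjusted p = 0.414). Tab2, an adaptor of the kinase Tak1, had -0.99 ± 0.37 and Map3k14, the kinase that starts the alternative NF-kB route, -1.0 ± 0.43. Rela, the main activating subunit, had -0.43 ± 0.24 and Nfkb1 -0.11 ± 0.67. Of 15 other feedback genes 8 were higher and 7 lower (median 0.1), with Rnf11, a partner of A20, at -0.82 ± 0.35 as the one at an unadjusted p under 0.05. Zfp36, whose product shortens the life of cytokine messages, measured 1010 ± 425 and 1287 ± 56.7 CPM, and Ier3 and Birc3, both known as survival genes, had log2 fold changes of 0.52 ± 0.33 and 0.49 ± 0.32. Other inducible targets had 12 higher and 3 lower of 15 (median 0.96), 3 of them at an unadjusted p under 0.05, among them Csf1, a macrophage growth factor, which had 34.5 ± 2.56 CPM on the low fat diet and 91 ± 28 CPM on the high fat diet (a log2 difference of 1.4 ± 0.23, edgeR adjusted p = 0.170) and Lcn2, an iron-trapping protein of neutrophils, at 1.99 ± 0.53 (edgeR adjusted p = 0.338). Cebpb, a transcription factor that works with NF-kB, had 0.96 ± 0.35 and Mmp13, a collagenase, 0.71 ± 0.49.

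Of 17 other chemokines 10 were higher (median 0.32), 4 of them at an unadjusted p under 0.05. Cxcl12, which holds blood stem cells in the marrow, had 97.2 ± 90.4 CPM on the low fat diet and 1556 ± 434 CPM on the high fat diet (a log2 difference of 4.00 ± 0.93, edgeR adjusted p = 0.281, called by DESeq2), and it is also among the reticular stroma markers, of which 8 of 8 were higher. Ccl4 measured at most 0.643 CPM in LFD and 2.80, 3.91 and 14.9 CPM in HFD, within HFD the opposite order of libraries from Cxcl2, and Ccl9 had a log2 fold change of 3.17 ± 1.31. Of 10 chemokine receptors 8 were higher (median 1.2), 2 of them at an unadjusted p under 0.05. Ackr4, a scavenger of chemokines, had a log2 fold change of 2.13 ± 0.42 (edgeR adjusted p = 0.230) and was called by DESeq2. Ccr1 had 2.76 ± 1.14 and Ackr1, another scavenger, -0.67 ± 0.61. Cxcr2, the receptor for Cxcl1 and Cxcl2 and itself among the neutrophil markers, measured 0, 9.71, 1.93 and 8.16 CPM in LFD and 42.0, 25.7 and 20.7 CPM in HFD. Ccr2, the receptor for Ccl2, measured 0, 0, 2.62 and 11.4 CPM in LFD and 21.0, 13.5 and 22.4 CPM in HFD. Both receptors separated the diets with HFD above, as did 8.4% of all genes.

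Of 14 other adhesion receptors and integrin partners 8 were higher (median 0.33), 3 of them at an unadjusted p under 0.05. Cd44, the hyaluronan receptor, had a log2 fold change of 0.59 ± 0.22 and Itgam, an alpha chain of myeloid cells, 2.08 ± 0.67. Itgb2, the beta chain of the integrins that bind Icam1 and found on leukocytes, had a log2 fold change of 2.09 ± 0.53 (edgeR adjusted p = 0.318, called by DESeq2), and Itgal, one of its alpha chains, 1.59 ± 1.03. Itga4 and Itgb1, which form the receptor for Vcam1, had -0.97 ± 0.84 and 0.07 ± 0.22. Around Socs3, 16 of 21 STAT3 pathway genes were higher (median 0.29), and 3 higher and 1 lower were at an unadjusted p under 0.05. Socs5, of the same family, had a log2 fold change of 1.44 ± 0.40. Osm, a ligand that acts through Il6st, measured at most 16.3 CPM in LFD and 150, 110 and 60.1 CPM in HFD (log2 3.78 ± 0.75, edgeR adjusted p = 0.231, called by DESeq2), while Il6st had 0.19 ± 0.23 and Stat3 0.53 ± 0.31. Lifr, a partner receptor of Il6st, had 1.24 ± 0.25 (edgeR adjusted p = 0.236, called by DESeq2).

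Around Il1b, 5 of 6 genes of the interleukin 1 processing list were higher (median 1.28), 1 of them at an unadjusted p under 0.05. The list also holds the cytokine Il18, which was the lower one (-0.03 ± 0.60). Nlrp3 had 3.26 ± 1.89, Casp1 1.83 ± 1.23 and Gsdmd, the pore through which Il1b leaves the cell, 1.15 ± 0.36. Of 24 immediate early and dissociation genes, transcripts that can be induced while tissue is digested, 22 were higher (median 0.34), 3 of these with an unadjusted p under 0.05. DESeq2 called 0 of the 24. The log2 fold change was 1.87 ± 0.65 for Fosl1, 0.58 ± 0.23 for Hsph1 and 1.42 ± 0.59 for Dusp2. Junb measured 1548 ± 550 and 1991 ± 151 CPM and Fos 4200 ± 1309 and 5094 ± 232 CPM in LFD and HFD. The part that digestion plays in the levels of Socs3, Nfkbia and Nfkbiz was not tested.

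**Figure D5:**
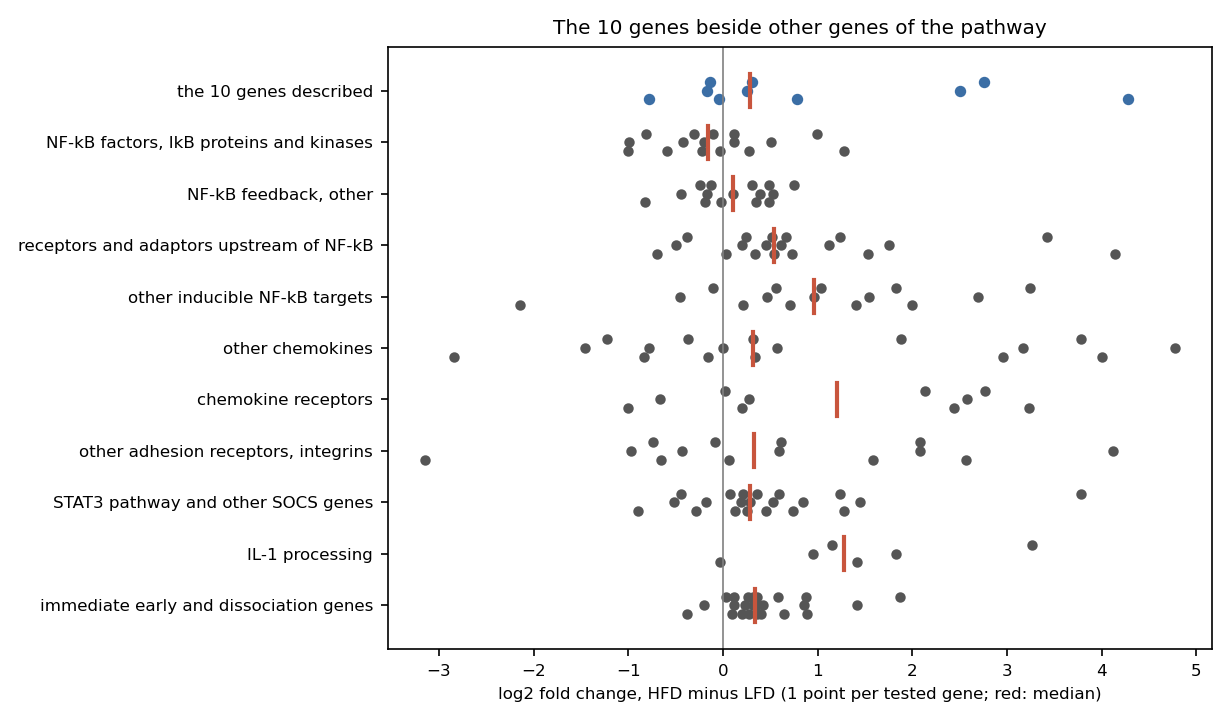
Log2 fold change of HFD against LFD (x axis) for each tested gene of the 10 pathway lists and for the 10 genes described, with the median of each list in red. Medians run from -0.15 for the NF-kB factors to 1.28 for the interleukin 1 processing list, with 0.28 for the 10 genes.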

How the data were processed

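RNA of sorted femoral cells was measured in 7 libraries. The deposited values are raw counts per Ensembl gene that the authors did not normalize. Per the labels' protocols, libraries were made with SMART-Seq v4 and Nextera XT, which amplify by PCR without molecular identifiers, and were sequenced paired-end. Per the submitters' processing notes the tools were bcl2fastq 2.20, cutadapt, STAR 2.5.2b, HTSeq 0.11.2 and DESeq2 1.26.0 with the mm10 build. The strand setting is not given in the sources used here, so reads of genes that overlap cannot be assigned to a strand. Antisense genes that share exon bases with Il1b and Vcam1 held 0 and 1 counts in all libraries, and the one that shares 511 bases with Icam1 is not analysed here.

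Of 42687 identifiers, 42250 had a symbol and the other 437 held at most 0.0216% of a library. The diet named in each title set the groups. The labels do not say that libraries came from separate animals, so the spread behind each p-value may be partly technical. Between any 2 libraries, chi-square divided by its degrees of freedom was 55.7 to 663, far above sampling noise.

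The main test was edgeR's quasi-likelihood test (edgeR 4.0.16, R 4.3.3; TMM, filterByExpr by group, robust fit, diet as the sole term, Benjamini-Hochberg at 0.05). The common biological coefficient of variation was 0.628. CPM used TMM-scaled totals, and levels per length used annotated exons. The procedure was tested on simulated data. The settings tried besides it were normalization by RLE or by upper quartile, a filter of only 1 count, at least 10 counts in 4 libraries, no robust fit, an adjusted p under 0.1, DESeq2 1.42.0, limma-voom in limma 3.58.1, each library left out and a replicate block.

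The 10 genes and all lists were chosen with earlier results of these data known. The genes named besides them are, per pathway list, up to 3 with the smallest unadjusted p and the one with the highest level per length, the partners of the 10 genes, the 2 most abundant markers per cell type, and per gene the 3 of most similar pattern among named genes that averaged 8 CPM or more. Of the markers, those of cell types on which no result here turns are left out, and 1 other marker is not reported here. Cxcl3, Ptprc, Il18, the other neutrophil markers, the monocyte markers at 0 and the reticular stroma sum were named after their values were seen, not by that rule. Likeness used log2(CPM + 0.5).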

Additional observations from a re-analysis of the deposited data

Results flagged for a closer look

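The summed level of mast cell and basophil markers was 0.247 CPM in LFD 4 (5 counts, all of 1 gene) and 0 in the other 3 LFD libraries, so that 1 library was flagged. It was the one such case among 24 sets of LFD values tested, where the level used flags about 1 in 20 by chance. That rate does not apply to this case, because any value above 0 is flagged when the other libraries are at 0. Among the 10 genes, Socs3 came closest, with LFD 1 above the next library by 0.828 of the group's range, just under the level used for 4 libraries. The HFD group, with 3 libraries, was not tested in this way.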

How the results depend on the processing

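The number of genes called, most of them sex-linked in the main test, stayed at 5 with RLE or upper-quartile normalization and without robust estimates. It was 8 with no filter beyond 1 count, 10 at an adjusted p under 0.1, 28 with limma-voom and 291 with DESeq2, and leaving out single libraries gave 1 to 6. With at least 10 counts in 4 libraries edgeR called 0 genes (988 at an unadjusted p under 0.05). The 10 genes described gave 0 calls under every alternative run except DESeq2, which called 1, Cxcl2; the cause was not tested. Of 150 fold changes under alternatives 145 kept their sign, and 9 of the 10 genes kept it throughout. The log2 fold change of Vcam1 reversed to 0.0232 with limma-voom. It also reversed in 4 fits that left out a library, to 0.0174 (without LFD 2), 0.00897 (without LFD 3), 0.0304 (without HFD 3) and 0.0786 (without HFD 4), with a range over the left-out libraries of -0.238 to 0.0786. Cxcl2 had adjusted p between 0.0133 (DESeq2) and 0.9999 over its alternatives.

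The replicate numbers 2, 3 and 4 occur in both diets, and the labels do not say that they pair the libraries. Deviations of same-numbered libraries correlated at -0.04, 0.04 and -0.15, which cannot decide this with so few libraries. With the replicate block 0 genes were called, with 1335 at an unadjusted p under 0.05. There, 4 of the 10 genes had an unadjusted p under 0.05 (Ccl2, Cxcl2 and Nfkbiz higher, Tnfaip3 lower) and the median over all genes shifted to 0.15.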
